A study of Homo sapiens with 90 samples.

Results

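The mitosis genes are 50 human genes whose products take a cell into mitosis, build the spindle, hold and separate the chromosomes and divide the cytoplasm. They were taken as a list of symbols by a rule that uses no measured value, though with earlier results of these data known, and each symbol was matched to its Ensembl ID in the table of expected counts, 50 of the 53893 IDs it holds. The study treated 6 established human cancer cell lines with a kinase inhibitor matched to each line, with the CDK7 inhibitor THZ1, or with both, and sequenced RNA from 3 libraries of each of 5 arms per line, 90 libraries in all. THZ1 binds CDK7, a kinase of the general transcription machinery, covalently, and reaches CDK12 and CDK13 too.

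The 5 arms of a line were the combination of both drugs for 48 h, THZ1 for 48 h, the targeted drug for 7 days, the targeted drug for 48 h, and 0.1% DMSO for 48 h as the vehicle. In the melanoma line A375 the targeted drug was vemurafenib (against BRAF) at 1 uM, with THZ1 at 50 nM. In the lung line A549 it was GSK1120212 (trametinib, against MEK) at 200 nM, with THZ1 at 150 nM. In the lung line H3122 it was crizotinib (against ALK) at 250 nM, with THZ1 at 50 nM. In the gastric line N87 it was lapatinib (against EGFR and ERBB2) at 100 nM, with THZ1 at 25 nM. In the lung line PC9 it was erlotinib (against EGFR) at 1 uM, with THZ1 at 100 nM, and in the bladder line RT112 it was BGJ398 (against FGFR) at 1 uM, with THZ1 at 100 nM. The drug, its target and the line change together, so they cannot be told apart, and the 7-day arm has no vehicle of the same length. Nothing in the labels tells if an arm's 3 libraries are separate cultures. The p-values within a line therefore reflect the spread between these libraries, which may be technical. So do those of the tests of the difference between a line and the other 5.

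As background, cyclin A and cyclin B with CDK1 drive entry into mitosis, after CDC25 phosphatases remove the inhibitory marks on CDK1. Aurora and polo-like kinases then organise the centrosomes and the kinetochores, the spindle assembly checkpoint holds anaphase until every kinetochore is attached, and the anaphase-promoting complex with CDC20 ends the wait by marking securin and cyclin B for destruction. Transcripts of these genes are made late in the cell cycle: in resting cells the DREAM complex represses them at promoter elements named the cell cycle homology region (CHR), and in dividing cells NF-Y at CCAAT boxes, B-MYB and FOXM1 at the MuvB core raise them. In a bulk RNA sample the level of such genes therefore follows the share of cells in the late cell cycle, among other things. Fewer cells in that stage and less RNA per cell cannot be told apart here.

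Because the members share a regulated window of the cell cycle, their promoters were read for those elements in RefSeq's windows of 300 bases on GRCh38.p14, 250 bases before to 50 bases after the start. Of the 50 members, 43 were matched to a window by symbol. FOXM1, AURKA, TPX2, TTK, BIRC5, UBE2C and RACGAP1 were not matched. Both strands were searched for the box CCAAT, which reads ATTGG on the other strand. The CHR was searched as TTTGAA, which reads TTCAAA on the other strand. A second spelling of the CHR, which is its own reverse complement, was searched as TTCGAA. The 6 windows printed here, 5′ to 3′ along each gene, come from roles described later and hold the boxes in different numbers, with every match in capitals. The windows are CDC20 at chr1:43358731-43359030 (+), CENPF at chr1:214602945-214603244 (+), MKI67 at chr10:128126374-128126673 (-), ANLN at chr7:36389612-36389911 (+), CDC25B at chr20:3796060-3796359 (+) and KIF23 at chr15:69414099-69414398 (+).
CDC20: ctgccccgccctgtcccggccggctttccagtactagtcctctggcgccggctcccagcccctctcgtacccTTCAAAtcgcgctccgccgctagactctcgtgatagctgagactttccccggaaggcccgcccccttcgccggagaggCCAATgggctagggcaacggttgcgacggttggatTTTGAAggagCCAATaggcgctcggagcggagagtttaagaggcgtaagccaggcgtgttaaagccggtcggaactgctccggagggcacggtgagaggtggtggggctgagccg
CENPF: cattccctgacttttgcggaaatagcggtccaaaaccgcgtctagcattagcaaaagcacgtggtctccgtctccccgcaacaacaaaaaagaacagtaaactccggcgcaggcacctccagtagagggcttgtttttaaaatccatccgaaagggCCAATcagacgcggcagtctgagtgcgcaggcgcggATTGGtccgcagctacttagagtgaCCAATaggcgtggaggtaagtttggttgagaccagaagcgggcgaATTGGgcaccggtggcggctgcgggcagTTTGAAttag
MKI67: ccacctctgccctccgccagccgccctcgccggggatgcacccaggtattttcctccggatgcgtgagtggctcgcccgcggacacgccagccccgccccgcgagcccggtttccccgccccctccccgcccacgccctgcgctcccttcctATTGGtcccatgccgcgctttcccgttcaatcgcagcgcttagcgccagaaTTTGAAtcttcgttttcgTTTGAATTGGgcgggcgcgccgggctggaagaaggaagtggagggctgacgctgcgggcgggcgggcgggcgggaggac
ANLN: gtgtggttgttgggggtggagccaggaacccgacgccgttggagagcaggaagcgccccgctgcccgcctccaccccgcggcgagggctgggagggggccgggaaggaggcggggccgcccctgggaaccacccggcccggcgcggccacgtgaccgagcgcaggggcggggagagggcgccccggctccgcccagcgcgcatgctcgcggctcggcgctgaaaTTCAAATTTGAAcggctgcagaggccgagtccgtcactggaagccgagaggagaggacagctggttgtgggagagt
CDC25B: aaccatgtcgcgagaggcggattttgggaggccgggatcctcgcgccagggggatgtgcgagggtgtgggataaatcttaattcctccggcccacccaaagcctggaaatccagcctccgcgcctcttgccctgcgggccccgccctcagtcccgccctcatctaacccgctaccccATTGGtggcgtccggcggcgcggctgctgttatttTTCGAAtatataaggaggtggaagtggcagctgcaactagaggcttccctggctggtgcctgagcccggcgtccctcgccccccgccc
KIF23: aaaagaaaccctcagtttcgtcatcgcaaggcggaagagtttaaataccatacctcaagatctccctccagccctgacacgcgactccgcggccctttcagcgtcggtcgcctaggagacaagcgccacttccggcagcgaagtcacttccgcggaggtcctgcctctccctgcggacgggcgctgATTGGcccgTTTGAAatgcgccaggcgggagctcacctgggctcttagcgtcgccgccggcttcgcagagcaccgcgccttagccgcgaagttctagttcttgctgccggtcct

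CDC20 and MKI67 each hold 2 CCAAT boxes and 2 TTTGAA elements, and in MKI67 a TTTGAA runs into an ATTGG that shares letters with it. CENPF holds 4 CCAAT boxes and 1 TTTGAA close to its start, while ANLN holds 2 TTTGAA elements side by side and no CCAAT. The CDC25B window is 1 of 4 in the table for that gene, and it holds 1 CCAAT and 1 TTCGAA. KIF23 holds 1 CCAAT and 1 TTTGAA. Over the 43 matched members, 79.1% (34 genes) held a CCAAT box in some window, against 39.7% of all 27303 genes in the table, and 48.8% (21) held at least 2 in a window, against 12.9%. TTTGAA was found for 69.8% (30), against 18.2% of all genes, and TTCGAA for 9.30% (4), against 1.82%. Both kinds of element were found in the windows of 62.8% (27), against 7.85%. A match is a run of letters and not a measured site, and no factor binding was measured here.

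The libraries held 5.64 to 14.36 M expected counts each, and all 50 members passed the low-count filters of every fit. The lowest expected count of a member was 2, for CDC25C. CPM here is the expected count per M of the library total, so it is a share, and a change in the total RNA of a cell was not measured. The lines carried some of the genes listed as markers of their labelled tissue and lacked others. In DMSO, A375 had 3 of 8 melanocyte markers at 1 CPM or more, with SOX10 at 953 CPM and TYR at 0. H3122 had 5 of 8 lung markers, with NKX2-1 at 227 CPM, while A549 and PC9 had 0 of 8. N87 had 2 of the 8 genes of the gastric list, CDX2 at 75.6 CPM and MUC5AC at 4.47 CPM, with TFF1 at 0.032 CPM and CLDN18 at 0. The summed gastric list was 80.3 to 81.2 CPM in N87, most of it CDX2, but 121 to 132 CPM in A549 and 195 to 222 CPM in H3122. The list thus does not set N87 apart as gastric. RT112 had 7 of 8 urothelial markers, with UPK1B at 509 CPM, which A549 also had at 234.5 CPM. Of the 7 blood markers, CD68 (5.36 to 38.7 CPM) and LYZ (1.13 to 12.2 CPM) were above 1 CPM in every line, while PTPRC was at most 0.315 CPM. Replicate 1 of RT112, which every arm but THZ1 has, and of H3122 under crizotinib for 7 days, lay away from the other libraries of its arm. The count under THZ1 in H3122 and the values of KIF23 in RT112 are given with and without these libraries. Some other libraries also lay away from their arm and were kept in the fits without these. Examples are replicate 1 of N87 at 7 days, replicate 1 of A375 under vemurafenib at 48 h and replicate 4 of PC9 in DMSO. Of the 22 loci in the table named as a pseudogene, antisense, divergent or readthrough transcript of a member, KIF23-AS1 had 3.88% of the count of its partner and every other had under 1%. The kit and counting are not stated to use strand, so reads of a gene and its antisense partner cannot be told apart.

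Between genes, levels were compared only as CPM per kb of the longest transcript, averaged over the 18 DMSO libraries. The lowest were CDC25C at 6.21, the kinetochore motor CENPE at 6.90 and the kinesin KIF18A at 7.22 CPM per kb. The highest were CKS2, a small subunit of cyclin-dependent kinases, at 133, UBE2C, the ubiquitin-conjugating enzyme of the anaphase-promoting complex, at 93.5, and CDC20 at 91.8 CPM per kb. The DNA-untangling enzyme TOP2A had 81.1, CCNB1 (cyclin B1) had 80.7 and the kinase PLK1 had 77.1 CPM per kb.

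Summed over the 50 members, the lines were alike in DMSO, at 5093 to 6176 CPM, and far apart under the drugs. In PC9 the sum was 3534 ± 42.2 CPM in the combination, 6595 ± 44.5 in THZ1, 1299 ± 59.7 at 7 days of erlotinib, 467 ± 19.5 at 48 h of erlotinib and 5624 ± 217 in DMSO (SD, n = 3 each). In H3122 it was 4607 ± 56.1 CPM in the combination, 5864 ± 53.3 in THZ1, 748 ± 94.0 at 7 days of crizotinib, 7990 ± 175 at 48 h of crizotinib and 5776 ± 44.7 in DMSO (SD, n = 3 each). The targeted drug at 48 h left 9.81% of the DMSO sum in A375, 15.9% in A549, 27.2% in N87, 8.31% in PC9 and 34.6% in RT112, and 138.3% in H3122. The lowest arm differed by line: it was the targeted drug at 48 h in A375 and PC9, the targeted drug at 7 days in A549, H3122 and RT112, and the combination in N87, at 17.1% of the DMSO sum.

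**Figure D1:**
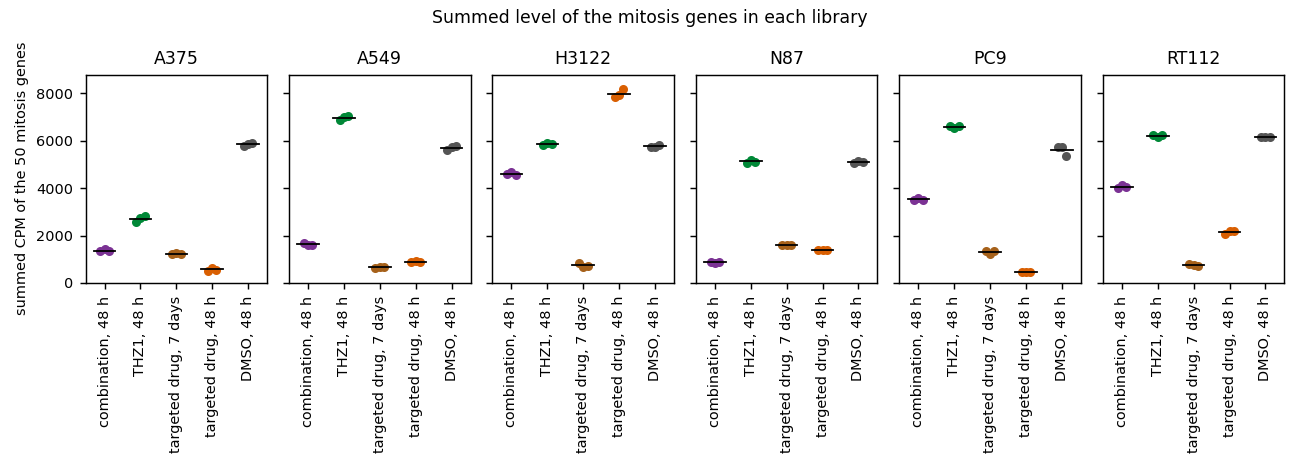
Summed CPM of the 50 mitosis genes (vertical axis, linear from 0) in each library, by arm and line; points are libraries and horizontal lines are means of 3. The targeted drug at 48 h sits at 467 to 2139 CPM in 5 lines and at 7990 CPM in H3122, against 5093 to 6176 CPM in DMSO.

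Which mitosis genes does each targeted drug lower at 48 h? In A375, A549, N87, PC9 and RT112 every one of the 50 fell, and in H3122 none fell and 35 rose. Calls rest on edgeR's quasi-likelihood test over all genes of the line, with a Benjamini-Hochberg threshold of 0.05. Among all genes tested, 32.9% were called lower in A375, 37.4% in A549, 35.4% in N87, 32.8% in PC9 and 35.1% in RT112, and 22.0% were called higher in H3122. The median log2 change of the members was -3.73 in A375, -2.87 in A549, -2.04 in N87, -3.63 in PC9 and -1.79 in RT112, and 0.33 in H3122, while the medians of all genes tested lay within 0.05 of 0. With the 6 lines as replicates, 49 of the 50 members were called lower (median -1.92), against 18.5% of all genes tested, and leaving out each line in turn gave 35 (without A375) to 50 (without H3122). The member that was not called was KIF20A, a kinesin of the central spindle, at -1.47 ± 0.61 (SE, edgeR adjusted p = 0.0603, n = 6 lines).

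**Figure D2:**
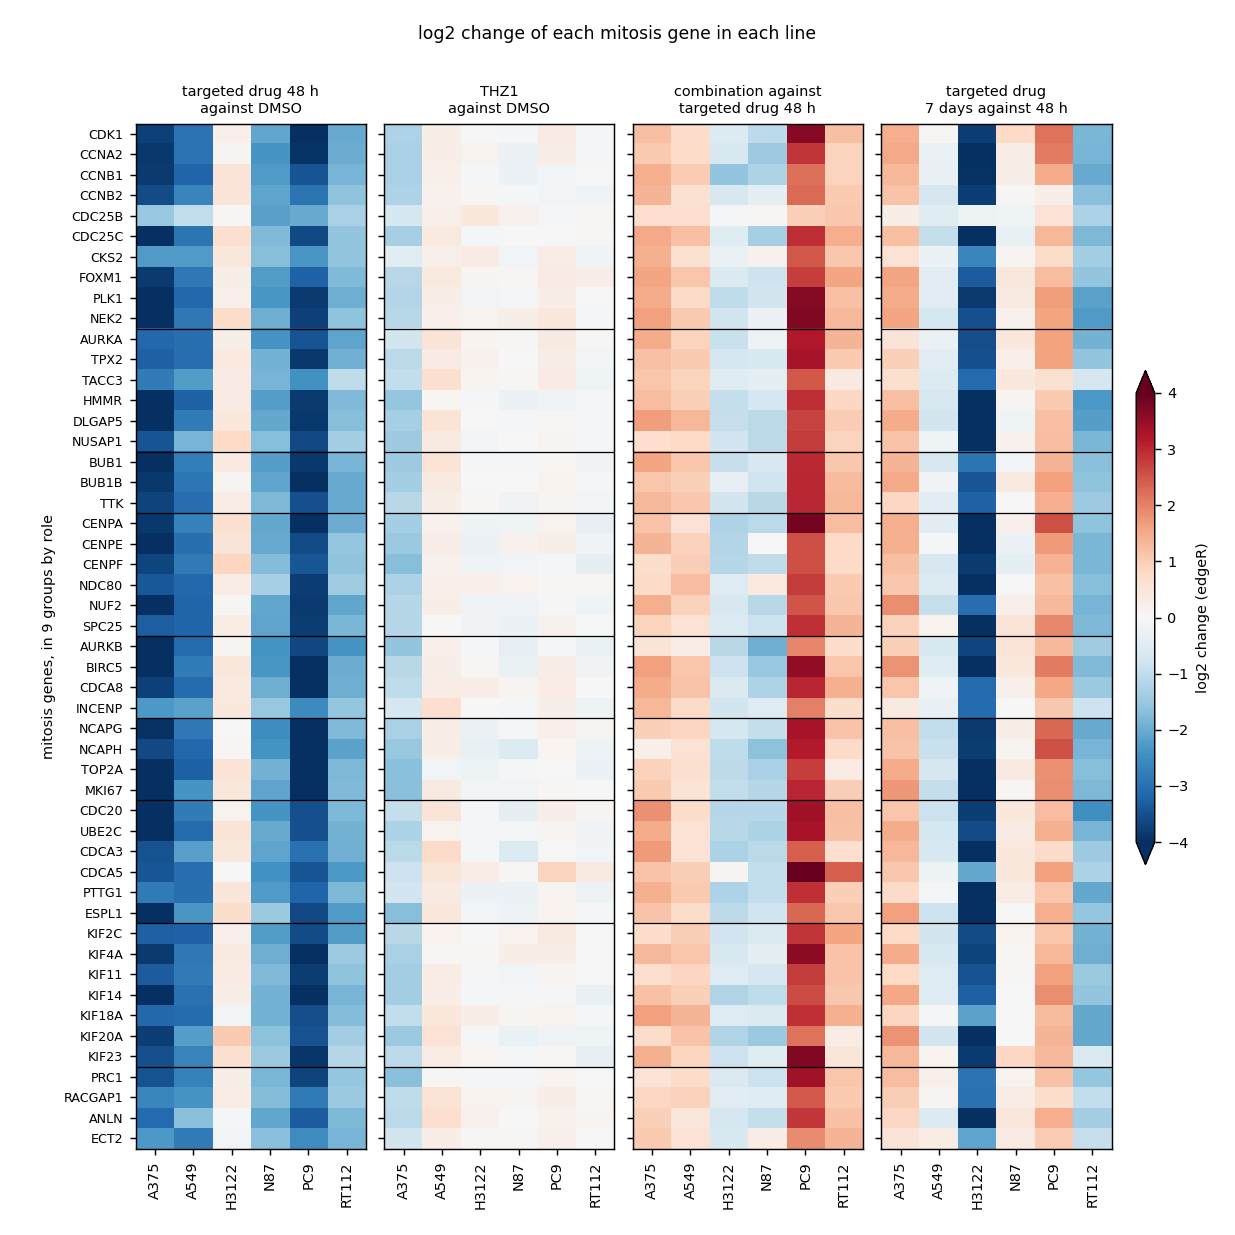
Log2 change of each of the 50 mitosis genes (vertical axis, grouped by role) in each line (horizontal axis) for 4 comparisons, as fitted in edgeR; colour gives the log2 change and saturates at -4 and 4. Under the targeted drug at 48 h the 5 lines other than H3122 are lower for every gene, with line medians of -3.73 to -1.79.

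Among the regulators of mitotic entry, all 10 fell across lines (median log2 change -1.87). FOXM1, the forkhead factor that activates late cell cycle genes, had 11.6 to 14.7 CPM under vemurafenib, against 176.3 to 181.3 CPM in the 3 DMSO libraries of A375. In H3122, FOXM1 had 244, 251 and 259 CPM under crizotinib, against 191, 202 and 209.7 CPM in DMSO. The groups of FOXM1 did not overlap in either line, with log2 changes of -3.84 ± 0.10 in A375 (SE, edgeR adjusted p = 8.92e-17, n = 3 each) and 0.23 ± 0.06 in H3122 (SE, edgeR adjusted p = 0.00296, n = 3 each). CDC25B, a phosphatase that activates CDK1, moved least of the 50: across lines it fell by 1.27 ± 0.28 on the log2 scale (SE, edgeR adjusted p = 0.00151, n = 6 lines). In A549, CDC25B had 96.6, 100.9 and 94.7 CPM under GSK1120212, against 201.3, 189.1 and 201.2 CPM in DMSO, again without overlap. CKS2 was the next but one in that order, at -1.40 ± 0.34 (SE, edgeR adjusted p = 0.00328, n = 6 lines).

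All 6 Aurora A and spindle assembly genes fell across lines (median -1.90), as did all 3 checkpoint genes (median -2.08). TPX2, which activates Aurora A and nucleates spindle microtubules, had 16.2, 16.7 and 16.4 CPM under erlotinib, against 264, 269.8 and 249 CPM in DMSO in PC9. BUB1B, the BubR1 component of the checkpoint that holds back CDC20, had 2.66, 3.46 and 2.64 CPM under erlotinib, against 62.7, 55.4 and 53.7 CPM in DMSO. Both sets of libraries were far apart, with log2 changes of -3.86 ± 0.06 for TPX2 (SE, edgeR adjusted p = 1.79e-21, n = 3 each) and -4.17 ± 0.11 for BUB1B (SE, edgeR adjusted p = 2.1e-18, n = 3 each). In H3122 all 6 spindle assembly genes rose, whereas BUB1B, with 170.2, 186 and 193 CPM under crizotinib against 160.2, 156 and 157 CPM in DMSO, did not pass the test (0.12 ± 0.09, SE, edgeR adjusted p = 0.307, n = 3 each).

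All 6 centromere and kinetochore genes fell across lines (median -1.83). NUF2, a subunit of the NDC80 complex that grips microtubules, fell by 2.22 ± 0.52 (SE, edgeR adjusted p = 0.00239, n = 6 lines), the next to the largest change of the 50. CENPF, a large kinetochore protein, had 32.6, 37.0 and 26.9 CPM under vemurafenib, against 398, 398 and 397 CPM in DMSO in A375. In H3122 CENPF went the other way, with 307, 304 and 323 CPM under crizotinib against 158, 159.7 and 160.1 CPM in DMSO, a log2 change of 0.87 ± 0.11 (SE, edgeR adjusted p = 4.87e-06, n = 3 each). None of these CENPF groups overlapped.

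Of the 4 chromosomal passenger genes, all fell across lines (median -2.02). AURKB, the kinase of that complex, had the largest fall of the 50 across lines, at -2.28 ± 0.52 (SE, edgeR adjusted p = 0.00208, n = 6 lines), with line values of -3.98 in A375 to 0.10 in H3122. Its scaffold INCENP had nearly the smallest, at -1.34 ± 0.36 (SE, edgeR adjusted p = 0.00631, n = 6 lines). BIRC5 (survivin), which brings the complex to the centromere, had 5.07, 5.71 and 6.09 CPM under erlotinib, against 111.0, 116 and 98.99 CPM in DMSO in PC9. In N87, BIRC5 had 19.2, 23.0 and 19.0 CPM under lapatinib, against 93.9, 98.2 and 92.9 CPM in DMSO. The fall of BIRC5 was -4.14 ± 0.08 in PC9 (SE, edgeR adjusted p = 6.55e-20, n = 3 each) and -2.32 ± 0.08 in N87 (SE, edgeR adjusted p = 1.01e-15, n = 3 each), with no overlap in either line.

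All 4 chromosome structure genes fell across lines (median -2.10), the condensin subunits NCAPG and NCAPH, TOP2A and MKI67. MKI67 encodes Ki-67, the coat of mitotic chromosomes used as a marker of dividing cells. It had 16.8, 28.6 and 22.0 CPM under vemurafenib against 467, 474 and 457 CPM in DMSO in A375, and 19.4, 20.5 and 19.6 CPM under erlotinib against 354, 354 and 362 CPM in DMSO in PC9. In RT112 MKI67 had 157, 191 and 186 CPM under BGJ398, against 539.6, 532 and 558 CPM in DMSO. In H3122 it had 794, 817 and 862 CPM under crizotinib, against 523, 553 and 595 CPM in DMSO. The MKI67 groups did not overlap in these 4 lines, and the log2 changes ran from -4.38 ± 0.11 in A375 (SE, edgeR adjusted p = 1.16e-16, n = 3 each) to 0.47 ± 0.08 in H3122 (SE, edgeR adjusted p = 9.14e-05, n = 3 each).

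The 6 genes of the anaphase-promoting complex and of chromatid separation all fell across lines (median -1.90). CDC20, which activates that complex, had 13.8, 16.2 and 15.7 CPM under GSK1120212, against 103, 107 and 114 CPM in DMSO in A549, a log2 change of -2.81 ± 0.08 (SE, edgeR adjusted p = 5.57e-18, n = 3 each). CDCA5 (sororin), which stabilises cohesin on sister chromatids, fell by 2.18 ± 0.52 across lines (SE, edgeR adjusted p = 0.00281, n = 6 lines). Of the 7 mitotic kinesins 6 were called lower across lines (median -1.89). KIF23, a motor of the central spindle, had 6.90, 8.18 and 8.61 CPM under erlotinib, against 132, 129 and 128 CPM in DMSO in PC9. All 4 genes of the central spindle and cytokinesis fell (median -1.69), and ANLN (anillin), the scaffold of the contractile ring, had 52.9, 58.1 and 53.9 CPM under GSK1120212, against 171, 183 and 179 CPM in DMSO in A549. The libraries of CDC20, KIF23 and ANLN in these lines fell into separate groups.

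**Figure D3:**
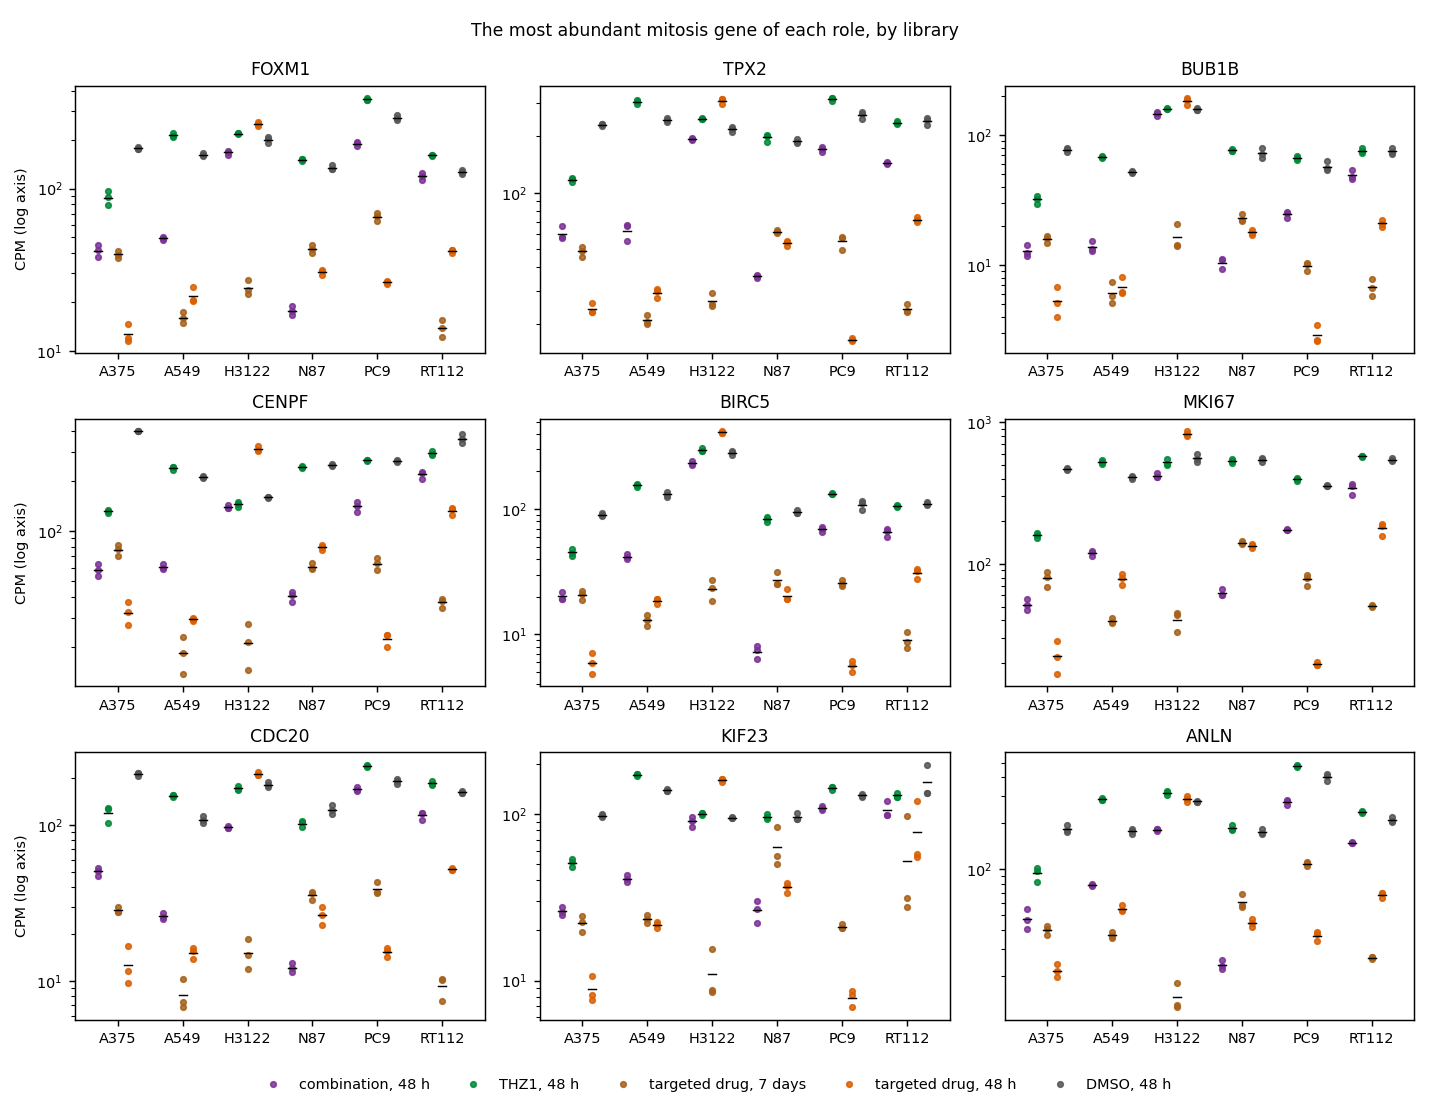
CPM (log axis) of the member with the highest mean level in each of the 9 roles, in each library by line and arm; points are libraries and horizontal lines are means of 3. For MKI67 the targeted drug at 48 h gives 16.8 to 28.6 CPM in A375 and 794 to 862 CPM in H3122, against 457 to 474 and 523 to 595 CPM in DMSO.

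H3122 was the line whose members went the other way at 48 h. The 15 that were not called there included KIF18A (-0.11), the cytokinesis exchange factor ECT2 (-0.10) and ANLN (-0.05), and the largest rises were KIF20A at 1.05 ± 0.12 (SE, edgeR adjusted p = 2.25e-06, n = 3 each), CENPF and the spindle protein NUSAP1 at 0.80 ± 0.08 (SE, edgeR adjusted p = 4.74e-07, n = 3 each). KIF20A had 229, 226 and 245 CPM under crizotinib, against 106.5, 106.5 and 103 CPM in DMSO, more than any other arm of that line. The test of the difference, the change in a line minus the mean change in the other 5 lines over all 90 libraries, called 50 members higher in H3122 (median difference 3.10), against 28.6% of all genes tested. It called 50 lower in A375 (median -1.71, 28.1% of all genes), 50 lower in PC9 (median -1.74, 31.6%) and 42 lower and 2 higher in A549 (median -0.64, 33.3% lower). N87 and RT112 had 31 higher and 2 lower (median 0.34, 26.7% of all genes higher) and 43 higher and 0 lower (median 0.63, 29.3% higher).

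**Figure D4:**
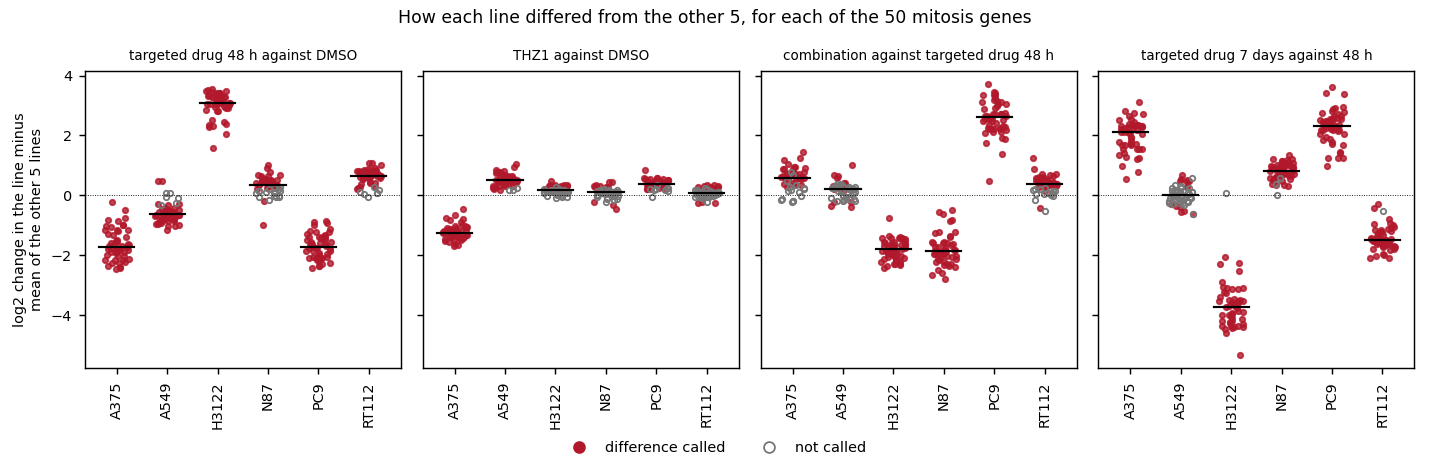
Difference between the log2 change of each mitosis gene in a line and the mean change in the other 5 lines (vertical axis, log2), for 4 comparisons; points are genes, filled where the difference was called, and horizontal lines are medians. H3122 stands at a median of 3.10 for the targeted drug at 48 h and A375 at -1.25 for THZ1.

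Other genes of mitosis were counted from a list of 132, of which 131 were found. Across lines 92 were called lower and 5 higher under the targeted drug at 48 h (median log2 change -0.93), where 18.5% of all genes tested were called lower. The other checkpoint genes had 8 of 9 lower, led by MAD2L1, the checkpoint protein MAD2, at -2.23 ± 0.45 (SE, edgeR adjusted p = 0.000822, n = 6 lines), and the other condensin subunits 6 of 6, led by NCAPG2 at -1.69. The other kinetochore genes had 22 of 26 lower, led by SKA3 at -2.36, and the other kinesins 7 of 8, led by KIF18B at -2.27. The other spindle and centrosome genes had 15 of 20 lower, led by DEPDC1 at -1.96, and the other cytokinesis genes 4 of 6, led by SHCBP1 at -2.13. The other mitotic kinases and phosphatases had 8 of 15 lower, led by the CDK phosphatase CDC25A at -2.67 ± 0.53 (SE, edgeR adjusted p = 0.00073, n = 6 lines).

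The lists with the smallest medians were those of the anaphase-promoting complex, cohesin and DREAM. Their counts, too, stand beside the 18.5% of all genes tested that were called lower. Of the 16 core subunits and helpers of the anaphase-promoting complex 6 were lower and 1 higher (median -0.24), with the chain-extending enzyme UBE2S lowest at -1.67. Of the 14 cohesin genes and regulators 7 were lower and 1 higher (median -0.29), with SGO1 (shugoshin, the guardian of centromeric cohesin) lowest at -1.94. Of the 11 DREAM and MuvB genes with pocket proteins 9 were lower and 1 higher (median -0.58), with MYBL2 (B-MYB) lowest at -2.10. The genes called higher were led by CDC14B at 0.66 ± 0.26 (SE, edgeR adjusted p = 0.0499, n = 6 lines), a phosphatase, CENPT at 0.47 ± 0.18 (SE, edgeR adjusted p = 0.0437, n = 6 lines), a kinetochore anchor, and RBL2 at 0.47 ± 0.15 (SE, edgeR adjusted p = 0.0194, n = 6 lines), the pocket protein p130 of DREAM.

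Does THZ1 alone, at the dose given to each line, lower the mitosis genes? In A375 all 50 fell (median log2 change -1.25), where 28.9% of all genes tested were called lower. In A549 41 rose and TOP2A fell (median 0.27), against 25.0% of all genes called higher, and in PC9 24 rose and KIF20A fell (median 0.13), against 26.1% called higher. In H3122 5 rose and NCAPH fell, against 23.1% of all genes called in either direction, in N87 5 rose and 10 fell, against 30.4%, and in RT112 2 rose and 13 fell, against 20.4% of all genes called lower. The shares in H3122 (6 of 50), N87 (15 of 50) and RT112 (13 of 50 lower) are thus under or near the background. The H3122 count was 3 without THZ1 replicate 1 and also without DMSO replicate 2, and 16 without crizotinib 7 days replicate 1, while the RT112 count of 15 in both directions was 9 without DMSO replicate 2 and 20 without the replicate 1 libraries.

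A375 and A549 show the contrast at single genes. MKI67 had 159, 153 and 166 CPM in THZ1, against 467, 474 and 457 CPM in DMSO in A375 (-1.66 ± 0.09, SE, edgeR adjusted p = 3.83e-11, n = 3 each). In A549 it had 509, 523 and 539.6 CPM in THZ1, against 398, 408 and 418 CPM in DMSO (0.35 ± 0.05, SE, edgeR adjusted p = 2.86e-06, n = 3 each). The groups did not overlap in either line. ANLN had 82.8, 97.2 and 101 CPM in THZ1 against 174, 179.5 and 195 CPM in DMSO in A375, and 284, 284 and 294 CPM in THZ1 against 171, 183 and 179 CPM in DMSO in A549. The smallest fall in A375 was that of CKS2, at -0.41 ± 0.11 (SE, edgeR adjusted p = 0.00533, n = 3 each), and the largest that of CENPF, with 128, 134 and 132 CPM in THZ1 against 398, 398 and 397 CPM in DMSO.

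CDCA5 was the member with the largest rise under THZ1 in PC9, with 198, 205 and 194 CPM in THZ1 against 105, 104 and 95.8 CPM in DMSO. The PC9 groups of CDCA5 were apart, and the log2 change was 0.91 ± 0.05 (SE, edgeR adjusted p = 2.18e-11, n = 3 each). It also rose in A549 (0.50 ± 0.05), H3122 (0.30 ± 0.07) and RT112 (0.36 ± 0.07), with edgeR adjusted p of 2.72e-08, 0.00326 and 0.000396, n = 3 each. It fell in A375, at -0.84 ± 0.10 (SE, edgeR adjusted p = 7.16e-07, n = 3 each). FOXM1 was the other member that rose in RT112, at 0.26 ± 0.05 (SE, edgeR adjusted p = 0.000902, n = 3 each). The falls against the majority were small: TOP2A at -0.12 ± 0.04 in A549, KIF20A at -0.14 ± 0.04 in PC9 and NCAPH at -0.30 ± 0.08 in H3122, with edgeR adjusted p of 0.0156, 0.012 and 0.0106, n = 3 each. In N87, where most called members were lower, KIF4A (0.25), NEK2 (0.22), CENPE (0.19), CDC25B (0.17) and KIF2C (0.14) rose.

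With the lines as replicates, edgeR called 0 of the 50 under THZ1, 0 had an unadjusted p under 0.05, and DESeq2 called 0. Of all genes tested, 0.0842% were called. The medians of the 6 lines did not share a sign, and the median over members was -0.16 (0.08 without A375), with TOP2A (-0.40), CENPF (-0.38) and AURKB (-0.37) lowest and RACGAP1 (0.04), AURKA (0.06) and CDCA5 (0.18) highest. The test of the difference between lines called 50 lower in A375 than in the other 5 (median difference -1.25, against 24.4% of all genes) and 47 higher in A549 (median 0.49, against 18.9%). It called 41 higher in PC9 (median 0.38, against 25.0%), 19 higher in H3122 (13.8%), 11 higher in N87 (15.2%) and 12 higher in RT112 (19.7%), the last pair with 3 lower each. The doses of THZ1 were 50 nM in A375 and H3122, 100 nM in PC9 and RT112, 150 nM in A549 and 25 nM in N87. At the same 50 nM the median log2 change was -1.25 in A375 and -0.03 in H3122. At the same 100 nM it was 0.13 in PC9 and -0.06 in RT112. What sets lines at the same dose apart was not tested. Between lines at different doses these are values side by side, and line and dose cannot be told apart. The H3122 count of 19 was 5, 11 and 11 without the libraries numbered 2, 3 and 4, the N87 count of 14 in both directions was 7 without those numbered 2, and the RT112 count of 15 was 7 and 9 without those numbered 2 and 3.

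What does adding THZ1 to the targeted drug do to genes the drug had already moved? In A375, A549, PC9 and RT112 the members stood higher with both drugs than with the 48 h targeted drug alone, and in H3122 and N87 they were lower. The counts were 47 up and 0 down in A375 (median log2 change 1.196), 49 and 0 in A549 (0.88), 50 and 0 in PC9 (2.88) and 49 and 0 in RT112 (1.08), where 35.1, 20.3, 33.4 and 32.8% of all genes were called higher. They were 0 up and 48 down in H3122 (median -0.75) and 2 up and 44 down in N87 (median -0.91), where 14.3 and 28.8% of all genes were called lower. This comparison and that of the targeted drug with DMSO share the libraries of the targeted drug at 48 h, so their values are given side by side and not related to each other.

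PC9 had the widest separation. MKI67 had 175, 172 and 173 CPM in the combination, against 19.4, 20.5 and 19.6 CPM under erlotinib, and BIRC5 had 65.5, 72.2 and 69.7 CPM against 5.07, 5.71 and 6.09 CPM. The libraries of both genes were far apart, with log2 changes of 3.06 ± 0.06 for MKI67 (SE, edgeR adjusted p = 5.71e-20, n = 3 each) and 3.54 ± 0.09 for BIRC5 (SE, edgeR adjusted p = 4.45e-18, n = 3 each). CDCA5 rose most, with 155, 148 and 143 CPM in the combination against 8.93, 7.09 and 9.10 CPM under erlotinib (4.07 ± 0.08, SE, edgeR adjusted p = 1.06e-19, n = 3 each), and its level in the combination was 146.0% of that in DMSO. CENPA, the histone variant of centromeres, followed at 3.83 ± 0.16 (SE, edgeR adjusted p = 1.29e-14, n = 3 each), and CDC25B rose least, at 0.97 ± 0.06 (SE, edgeR adjusted p = 2.31e-12, n = 3 each). Over the 50 members, the level in the combination ran from 29.7 to 146.0% of DMSO in PC9 (median 61.1), and 3 were above DMSO: CDCA5, CKS2 and TACC3, a microtubule stabiliser, named after their values were seen.

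In A375 and A549 the members in the combination stayed under their DMSO level, at medians of 19.6 and 26.6% of it. FOXM1 had 41.7, 45.1 and 37.8 CPM in the combination, against 14.7, 11.97 and 11.6 CPM under vemurafenib in A375, and 50.6, 48.1 and 49.6 CPM in the combination against 24.7, 20.6 and 20.3 CPM under GSK1120212 in A549. Neither pair of groups overlapped. CDC20 had the largest rise in A375, with 50.9, 53.2 and 47.4 CPM in the combination against 9.73, 16.7 and 11.7 CPM under vemurafenib (1.84 ± 0.13, SE, edgeR adjusted p = 3.21e-10, n = 3 each). NCAPH (0.22 ± 0.25), AURKB (0.56 ± 0.25) and SPC25 (0.88) did not pass the test in A375, nor did AURKB in A549 (0.31 ± 0.14, SE, edgeR adjusted p = 0.0959, n = 3 each). In RT112 the median level in the combination was 65.9% of DMSO. TPX2 had 143, 144 and 145 CPM in the combination against 71.4, 69.7 and 74.1 CPM under BGJ398 in RT112, without overlap, and KIF20A and TOP2A rose least there (0.29 ± 0.06 and 0.30 ± 0.06, SE, edgeR adjusted p = 0.000922 and 0.000178, n = 3 each).

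In N87 the combination lowered most members further. MKI67 had 66.4, 60.0 and 60.1 CPM in the combination, against 138, 129 and 135 CPM under lapatinib (-1.14 ± 0.05, SE, edgeR adjusted p = 4.12e-13, n = 3 each). AURKB fell most there, with 0.682, 1.21 and 0.964 CPM in the combination against 4.32, 3.13 and 3.27 CPM under lapatinib (-1.94 ± 0.27, SE, edgeR adjusted p = 4.96e-06, n = 3 each). Both genes had separate groups, and the AURKB levels rest on few reads. The members that rose in N87 were ECT2, with 103, 102 and 108 CPM in the combination against 79.3, 86.5 and 84.0 CPM under lapatinib (0.29 ± 0.05, SE, edgeR adjusted p = 3.13e-05, n = 3 each), and NDC80 (0.38 ± 0.07, SE, edgeR adjusted p = 0.000172, n = 3 each).

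In H3122 the combination stood under crizotinib, which itself stood above DMSO. CCNB1 fell most, with 82.4, 84.7 and 74.9 CPM in the combination against 232, 237 and 251 CPM under crizotinib (-1.57 ± 0.09, SE, edgeR adjusted p = 5.56e-10, n = 3 each). CENPF had 138, 137 and 144 CPM in the combination, against 307, 304 and 323 CPM under crizotinib. CDC25B (-0.05) and CDCA5 (0.11) were the members not called. The groups of CCNB1 and CENPF did not overlap, and over the 50 members the level in the combination was 51.5 to 122.4% of DMSO (median 80.8).

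Across the lines as replicates, edgeR called 0 of the 50 in the combination against the targeted drug (median 0.52), 3 had an unadjusted p under 0.05, and 8.03% of all genes tested were called. DESeq2 called 1, CDCA5, which had the highest log2 change at 1.33 ± 0.52 (SE, edgeR adjusted p = 0.109, n = 6 lines) and line values of -0.996 in N87 to 4.07 in PC9. KIF18A (0.88) and FOXM1 (0.79) came next, and KIF20A (-0.04), AURKB (-0.03) and TOP2A (0.05) were lowest. Without H3122 edgeR called 5. The test of the difference called 50 members higher in PC9 than in the other 5 lines (median difference 2.60, against 31.3% of all genes), 50 lower in N87 (-1.88, against 29.3%) and 50 lower in H3122 (-1.80, against 24.3%). A375 had 34 higher (0.59, against 32.6%), RT112 35 higher and 1 lower (0.38, against 25.7%) and A549 13 higher and 4 lower (0.2, against 20.4% higher). The A549 count of 17 was 11, 11 and 9 without the libraries numbered 1, 2 and 4.

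**Figure D5:**
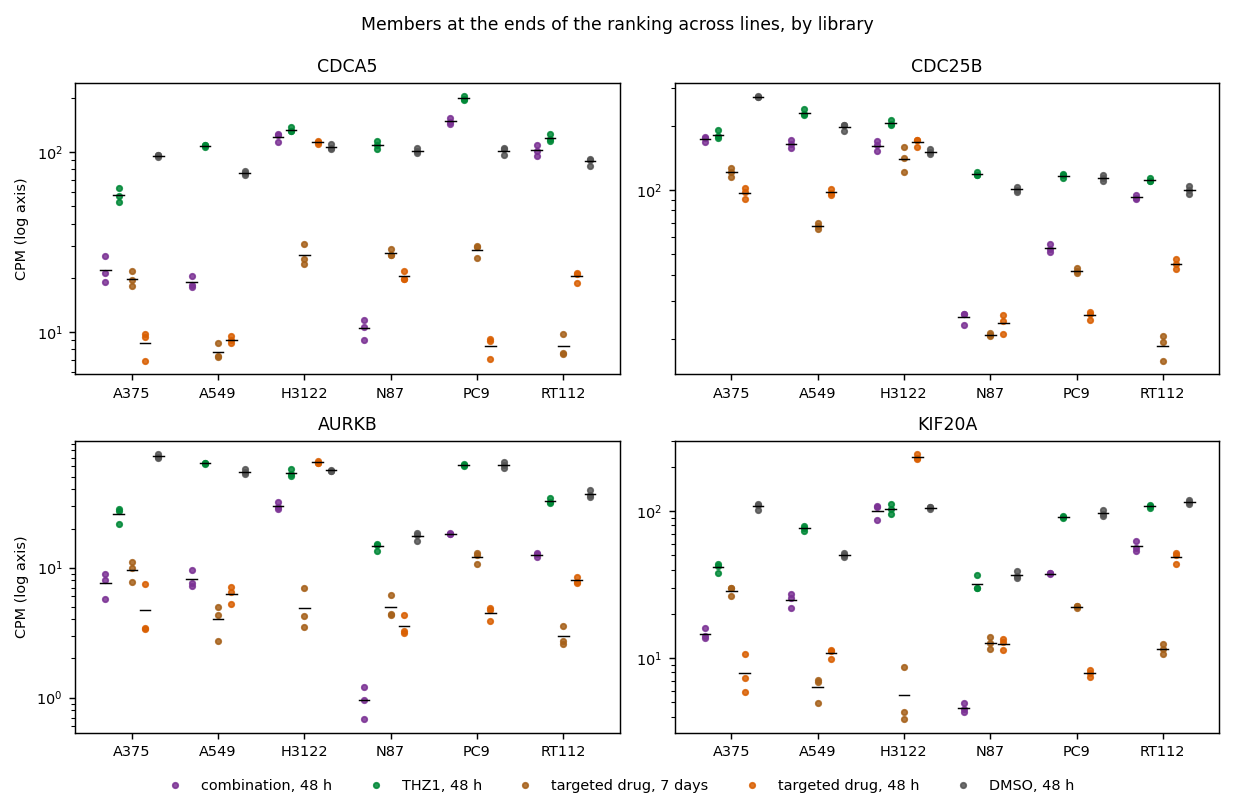
CPM (log axis) of CDCA5, CDC25B, AURKB and KIF20A, the members at the ends of the order across lines, in each library by line and arm; points are libraries and horizontal lines are means of 3. CDCA5 in PC9 lies at 143 to 155 CPM in the combination, against 7.09 to 9.10 CPM under erlotinib, and AURKB in N87 at 0.682 to 1.21 CPM in the combination, against 3.13 to 4.32 CPM under lapatinib.

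Set against THZ1 alone, the combination was lower for most members in every line. The counts called lower were 49 in A375 (median log2 change -1.26, against 20.4% of all genes called lower), 50 in A549 (-2.26, against 36.0%), 38 in H3122 (-0.43, against 24.5%), 50 in N87 (-2.83, against 36.6%), 50 in PC9 (-0.83, against 28.7%) and 47 in RT112 (-0.62, against 28.3%). None was called higher in a line by this test. Across lines 12 members were called lower (median of the 50 -1.21), against 10.6% of all genes tested. They were AURKB, NCAPH, CCNA2 (cyclin A2), TOP2A, KIF14, CCNB1, NUF2, NCAPG, KIF2C, BUB1, CDCA8 and ECT2. AURKB led at -1.94 ± 0.50 (SE, edgeR adjusted p = 0.0117, n = 6 lines), with NCAPH at -1.74 ± 0.55 and CCNA2 at -1.61 ± 0.53 next, and CKS2 (-0.62), CDC25B (-0.72) and KIF23 (-0.86) moved least. The count of 12 depends on the lines: it was 34 without H3122, 5 without A375 or RT112, 2 without PC9 and 0 without A549 or N87. It was 34 in DESeq2, and of the other mitotic genes 51 were lower and 1 higher.

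AURKB shows this comparison in the libraries. It had 0.682, 1.21 and 0.964 CPM in the combination against 14.9, 13.4 and 15.3 CPM in THZ1 in N87, and 9.59, 7.20 and 7.68 CPM in the combination against 64.1, 62.7 and 63.3 CPM in THZ1 in A549. In H3122 it had 28.4, 31.9 and 29.4 CPM in the combination, against 52.2, 51.1 and 57.2 CPM in THZ1. The groups of AURKB did not overlap in these 3 lines. KIF20A in H3122 had 86.6, 108 and 106 CPM in the combination against 95.7, 112 and 104 CPM in THZ1, groups that overlap, and it was not called (-0.13 ± 0.13, SE, edgeR adjusted p = 0.417, n = 3 each).

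The interaction, how far the combination departs from the sum of both drugs' log2 changes, had opposite signs between lines. It was called above 0 for 50 members in A375 (median 2.46, against 26.7% of all genes called higher), 50 in PC9 (2.75, against 22.8%), 49 in RT112 (1.14, against 24.7%) and 41 in A549 (0.56, against 15.3%). It was called below 0 for 45 in H3122 (median -0.81, against 3.57% of all genes called lower) and 41 in N87 (-0.78, against 15.5%). BUB1 had the largest value in A375 (3.03 ± 0.19, SE, edgeR adjusted p = 2.87e-10, n = 3 each), CENPA in PC9 (3.69 ± 0.19, SE, edgeR adjusted p = 1.64e-12, n = 3 each) and CDCA5 in RT112 (2.02 ± 0.10, SE, edgeR adjusted p = 4.17e-10, n = 3 each). The members against the majority were ANLN in A549 (-0.22 ± 0.07, SE, edgeR adjusted p = 0.0139, n = 3 each) and ECT2 in N87 (0.24 ± 0.06, SE, edgeR adjusted p = 0.00954, n = 3 each). Across lines edgeR called 0 members, 0 had an unadjusted p under 0.05, DESeq2 called 0, and 0.0% of all genes were called. CDCA5 (1.15 ± 0.70), KIF18A (0.90) and PRC1, which bundles the microtubules of the central spindle (0.86), were highest there, and KIF20A (0.22), AURKB (0.34) and INCENP (0.37) lowest. The interaction uses the same libraries as the comparisons above.

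How do the members stand after 7 days of the targeted drug, against 48 h? In A375 and PC9 49 rose and 0 fell (medians 1.2 and 1.38, against 18.6 and 25.7% of all genes called higher). In H3122 50 fell (median -3.76, against 33.4% called lower) and in RT112 49 fell (-1.74, against 18.5%). In A549 31 fell and 2 rose (median -0.50, against 23.7% called lower), and in N87 23 rose and 2 fell (0.19, against 22.3% called higher). With the lines as replicates edgeR called 0 members (median -0.59, and 0.14 without H3122), 0 had an unadjusted p under 0.05, DESeq2 called 0, and 0.0% of all genes were called. CDC25C and DLGAP5, a spindle protein, were lowest (-0.97 each), then HMMR (-0.87), and CDCA5 (-0.17), CDC25B (-0.17) and ECT2 (-0.21) moved least. A 7-day vehicle was not analysed here, so time in culture and time under the drug cannot be told apart.

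In PC9 MKI67 had 80.2, 70.5 and 83.2 CPM at 7 days, against 19.4, 20.5 and 19.6 CPM at 48 h of erlotinib (1.85 ± 0.06, SE, edgeR adjusted p = 1.25e-15, n = 3 each). In A375 it had 68.8, 81.4 and 88.3 CPM at 7 days, against 16.8, 28.6 and 22.0 CPM at 48 h of vemurafenib. The groups were apart in both lines, and the 7-day levels were still under those of DMSO: over the 50 members the median was 22.3% of DMSO in PC9 and 19.9% in A375. The condensin subunit NCAPH rose most in PC9 (2.53 ± 0.17, SE, edgeR adjusted p = 1.11e-10, n = 3 each), and NUF2 in A375 (1.86 ± 0.22, SE, edgeR adjusted p = 1.34e-06, n = 3 each).

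H3122, whose members stood above DMSO at 48 h, had them at a median of 10.1% of DMSO at 7 days. MKI67 had 43.6, 33.2 and 44.8 CPM at 7 days, against 794, 817 and 862 CPM at 48 h of crizotinib. KIF20A fell most, with 8.77, 3.84 and 4.32 CPM at 7 days against 229, 226 and 245 CPM at 48 h (-5.33 ± 0.17, SE, edgeR adjusted p = 8.43e-15, n = 3 each). Replicate 1 of the 7-day arm was the highest of the 3 for KIF20A, and its groups were far apart with or without it. CDC25B, at 121, 159 and 141 CPM at 7 days against 172, 159 and 172 CPM at 48 h, fell least (-0.21 ± 0.07, SE, edgeR adjusted p = 0.0135, n = 3 each), and its groups came within 1 CPM of each other. In RT112 CDC20 fell most, with 10.4, 10.1 and 7.504 CPM at 7 days against 51.6, 52.9 and 51.7 CPM at 48 h of BGJ398 (-2.46 ± 0.09, SE, edgeR adjusted p = 9.46e-12, n = 3 each).

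In A549 the members called higher were both of the central spindle and cytokinesis: ECT2 (0.28 ± 0.09) and PRC1 (0.21 ± 0.05) rose, with edgeR adjusted p of 0.0128 and 0.00357, n = 3 each, while MKI67 fell, with 41.5, 38.4 and 38.8 CPM at 7 days against 80.1, 84.7 and 71.5 CPM at 48 h of GSK1120212 (-0.96 ± 0.06, SE, edgeR adjusted p = 1.4e-10, n = 3 each). In N87 the kinetochore genes CENPF, with 59.6, 59.1 and 63.8 CPM at 7 days against 81.8, 76.9 and 79.8 CPM at 48 h of lapatinib (-0.38 ± 0.05, SE, edgeR adjusted p = 4.56e-06, n = 3 each), and CENPE (-0.25 ± 0.09, SE, edgeR adjusted p = 0.0241, n = 3 each) fell, while CDK1 rose (0.79 ± 0.08, SE, edgeR adjusted p = 1.55e-07, n = 3 each). The difference between lines in the change to 7 days, a test added after the arm sums were seen, called 50 members higher in A375 (median 2.10, against 21.9% of all genes) and 50 in PC9 (2.33, against 25.1%). It called 47 higher in N87 (0.81, against 23.1%), 49 lower in H3122 (-3.71, against 31.9%), 49 lower in RT112 (-1.49, against 21.9%), and 7 higher and 6 lower in A549 (0.00, against 49.7% in either direction).

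KIF23 is a member whose values depend on particular libraries, and the only 1 followed here by gene without them. Calls of other members depend on libraries too, as the counts under THZ1 in H3122 and RT112 show. In RT112 it had 97.1, 27.5 and 31.4 CPM at 7 days, 120.2, 55.2 and 57.5 CPM at 48 h of BGJ398, and 198, 133 and 134 CPM in DMSO, with replicate 1 the highest in each of these arms. Its antisense gene KIF23-AS1 was also highest in replicate 1, with 19.0, 10.9 and 8.92 CPM at 7 days, 11.7, 4.36 and 4.83 CPM at 48 h and 2.79, 1.42 and 1.70 CPM in DMSO. Its part in the KIF23 values was not tested. Without the libraries that stand apart the log2 change of KIF23 in RT112 was -0.93 ± 0.07 at 7 days against 48 h (SE, edgeR adjusted p = 9.05e-10), against -0.57 ± 0.39 with them (SE, edgeR adjusted p = 0.282, n = 3 each). For the combination against BGJ398 it was 0.85 ± 0.06 without them (SE, edgeR adjusted p = 3.58e-11) and 0.48 ± 0.38 with them (SE, edgeR adjusted p = 0.277, n = 3 each), and for BGJ398 at 48 h against DMSO it was -1.41 ± 0.05 without them and -1.15 ± 0.37 with them. KIF23 also passed the test without them, and not with them, in the other 3 comparisons in RT112. For THZ1 against DMSO it was -0.11 ± 0.04 without them (SE, edgeR adjusted p = 0.0345) and -0.34 ± 0.36 with them (SE, edgeR adjusted p = 0.494, n = 3 each). For the combination against THZ1 it was -0.45 ± 0.04 without them (SE, edgeR adjusted p = 3.38e-08) and -0.33 ± 0.37 with them (SE, edgeR adjusted p = 0.477, n = 3 each), and for the interaction 0.96 ± 0.07 without them (SE, edgeR adjusted p = 5.26e-10) and 0.82 ± 0.52 with them (SE, edgeR adjusted p = 0.216, n = 3 each). In N87 KIF23 had 83.6, 50.1 and 56.1 CPM at 7 days against 37.1, 38.7 and 33.5 CPM at 48 h of lapatinib, a log2 change of 0.82 ± 0.14 (SE, edgeR adjusted p = 7e-05, n = 3 each) that was 0.60 ± 0.09 without replicate 1 of the 7-day arm (SE, edgeR adjusted p = 1.67e-05). Without that library the interaction of KIF23 in N87 passed the test, at -0.44 ± 0.11 (SE, edgeR adjusted p = 0.00501), against -0.43 ± 0.20 with it (SE, edgeR adjusted p = 0.115, n = 3 each).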

How the data were processed

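RNA from 90 libraries of 6 cell lines in 5 arms was measured. The authors deposited 1 table of expected counts per gene, estimated with RSEM 1.2.12 over Bowtie2 2.2.1 on hg19, per the submitters' processing notes, and the sources used here do not give the annotation. Of the values of a library, those at 0 included, 7.83 to 13.75% were not whole, and all were rounded before the fits. Of the 53893 IDs, 6782 had no symbol in the reference table and held 1.265% of the counts. Library totals ran from 5.64 to 14.36 M. Replicates of an arm correlated at 0.9917 or more, and 0 pairs were identical. 1 A375 library has a tissue label that differs from the others of its line, and it was kept with A375 by its cell line label.

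Within each line, edgeR 4.0.16 (R 4.3.3) was fitted with its quasi-likelihood test to the 15 libraries with 5 arms, TMM scaling and filterByExpr. Across lines, the libraries of each line and arm were summed and fitted with line as a term over the 11875 genes that reached 1 CPM in 3 or more libraries of each line. Differences between lines were fitted over all 90 libraries as the change in a line minus the mean change in the other 5. Calls are at a Benjamini-Hochberg adjusted p of 0.05 over all genes tested, and SE is the log2 change divided by the root of the F statistic. Alternatives were RLE scaling, DESeq2 1.42.0, no filter, only the arms compared, a replicate block, leaving out each library or line, and leaving out the libraries that stand apart.

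The fits within a line and across lines were run on simulated counts, with few genes changed and each change alike in all lines. The data hold many more changed genes and opposite changes between lines, so that run does not check this setting. Replicate numbers were shared in full in 8 of the 30 pairwise comparisons, and in 0 of these did all same-numbered libraries deviate together at a correlation over 0.1 (-0.07 to 0.084). Of the comparisons that share 2 numbers, RT112 had both over 0.1 for BGJ398 at 48 h against DMSO (0.389 and 0.152) and for 7 days against 48 h (0.363 and 0.162). The labels tie the numbers to no shared batch or culture, so they were not taken as pairs. The mitosis genes, the roles and the list of other mitotic genes were chosen with earlier results of these data known. The text names, by a set rule, the member of each role with the highest mean CPM, the 3 largest and 3 smallest changes of each comparison across lines, the members called against the majority in a line, and the leading gene of each other list. Other members, such as CCNB1, CENPA, BUB1, NUSAP1, SPC25 and CDK1, are named outside that rule, from values seen within a line. The lines whose libraries are printed for a gene also follow no set rule. Promoter sequences are RefSeq's, on GRCh38.p14.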

Additional observations from a re-analysis of the deposited data

Results flagged for a closer look

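Under THZ1 the median log2 change of the mitosis genes in A375, -1.246, stood outside the other 5 lines, with medians of 0.269 in A549, 0.134 in PC9, -0.0339 in H3122, -0.0580 in RT112 and -0.0699 in N87. Dixon's test over the 6 medians singled it out, as chance does for about 1 in 20 such groups.

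The change in each line was tested against the mean change in the other 5 lines, and the members that differed in either direction were counted out of 50. Under the targeted drug at 48 h, set against DMSO, all 50 differed in A375 (lower), H3122 (higher) and PC9 (lower). In A549 44 differed (42 lower), in RT112 43 (all higher) and in N87 33 (31 higher). Of all genes tested, 28.1% were called lower in A375, 31.6% in PC9 and 33.3% in A549. Those called higher were 28.6% in H3122, 29.3% in RT112 and 26.7% in N87. Under THZ1, set against DMSO, 50 differed in A375, 47 in A549 and 41 in PC9, while H3122 had 19, RT112 had 15 and N87 had 14. Of all genes tested, 24.4% were called lower in A375. Those called higher were 18.9% in A549, 25.0% in PC9, 13.8% in H3122, 19.7% in RT112 and 15.2% in N87. In RT112 and N87, 12 and 11 of the 50 members were called higher, which is near these shares. Between the combination and the 48 h targeted drug, 50 differed in each of H3122, N87 and PC9. In RT112 36 differed (35 higher), in A375 34 (all higher) and in A549 17 (13 higher). Of all genes tested, 24.3% were called lower in H3122 and 29.3% in N87. Those called higher were 31.3% in PC9, 25.7% in RT112, 32.6% in A375 and 20.4% in A549. In A549, 13 of the 50 members were called higher, which is near that share. Between 7 days and 48 h of the targeted drug, 50 differed in A375 and PC9, 49 in H3122 and RT112, 47 in N87 and 13 in A549. Of all genes tested, 21.9% were called higher in A375, 25.1% in PC9 and 23.1% in N87. Those called lower were 31.9% in H3122 and 21.9% in RT112. The A549 count of 13 lay under the 49.7% of all genes called there in either direction. In either direction the background is larger. Of the 11875 genes, 7005 had an unadjusted p under 0.05 by edgeR for the N87 difference under the targeted drug at 48 h. For the combination against the targeted drug, 8056 did in A375 and 6980 in RT112. The 6 tests of a comparison use the same libraries, so they are not independent of each other.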

How the results depend on the processing

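Of the counts of called members, 726 of the alternatives within lines stayed within 1.5 times the reported count and 6 did not, against 55 and 11 across lines and 159 and 9 for differences between lines. Of the medians of log2 changes, 761 moved by less than the spread between replicates and 37 by more. The median across lines changed sign for THZ1 against DMSO without A375 (0.08, against -0.16) and for 7 days against 48 h without H3122 (0.14, against -0.59), and the H3122 median at 7 days against 48 h was -3.98 without replicate 1 of the 7-day arm, against -3.76. Named genes were followed under the alternatives in the fits across lines only. Their changes within a line were not followed in this way, save those of KIF23 in RT112 and N87. No called change of a named gene across lines turned its direction under an alternative. Changes that were not called did so in every comparison but the targeted drug at 48 h against DMSO and the combination against THZ1. Examples were KIF20A in the combination against the targeted drug (0.53 without H3122, against -0.04) and CDCA5 at 7 days against 48 h (0.39 without H3122, against -0.17). Of these values of named genes across lines, 912 kept their side of the threshold, 25 passed it newly and 20 lost it. In H3122 THZ1 called 6 members as reported, 20 with only the arms compared, 16 without the libraries that stand apart, and 3 to 16 when leaving out each library in turn. In RT112 THZ1 called 15, and 9 to 17 when leaving out each library. Across lines the combination against the targeted drug called 0, 1 in DESeq2 and 0 to 5 when leaving out each line. The combination against THZ1 called 12 across lines, 34 in DESeq2, 3 with no filter, 46 with only the arms compared and 0 to 34 when leaving out each line. When leaving out each replicate number in turn, the THZ1 difference between lines gave 5 to 27 in H3122 (19 reported), 7 to 15 in N87 (14) and 7 to 18 in RT112 (15), and the difference in A549 for the combination against the targeted drug gave 9 to 12 (17). The cause was not tested.

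A fit with the replicate number as a block moved no count by over 1.5 times: A549 under THZ1 had 40 calls with the block, RT112 in the combination against BGJ398 had 50, and the H3122 difference under THZ1 had 13. Among the 6 lines, the targeted drug at 48 h called 35 members without A375, against 49 with it. KIF23 was among those that missed the threshold without A375 (edgeR adjusted p = 0.116). The fall of AURKB in the combination against THZ1 missed it without A549 (edgeR adjusted p = 0.0669) or N87 (edgeR adjusted p = 0.0505).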
